A study of Mus musculus with 9 samples.

Results

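The genes described here encode subunits of the oxidative phosphorylation machinery, the 5 protein complexes of the inner mitochondrial membrane. They were chosen by name, as genes whose symbols begin with Nduf, Sdh, Uqcr, Cox or Atp5 and follow the naming pattern of subunits, and each was read from whichever of its probe sets was brightest on average. The pattern found 77 genes of 18193 with a probe set of their own, 33 in complex I, 4 in complex II, 8 in complex III, 15 in complex IV and 17 in complex V. Ndufa4 is named for complex I but was counted in complex IV, where its protein is now placed. Subunits encoded by mitochondrial DNA, and nuclear subunits whose symbols fall outside the pattern or share a probe set with another gene, are not members.

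RNA from frozen spleen tissue was hybridised to 1-colour Affymetrix arrays, 1 array per sample. The series holds 4 spleens of wild-type mice, labelled healthy controls, and 5 splenic lymphomas of mice carrying the Sca1-MALT1 transgene. Sca1 is the product of Ly6a, whose regulatory sequences direct transgenes to haematopoietic stem and progenitor cells, and MALT1 carries signals from antigen receptors to the NF-kB pathway, both as an adaptor and as a protease. For age, strain and treatment no value was given in the sources used. Whether each sample is a different animal is also unstated in the labels, and the p-values here cover sample-to-sample spread, which may be technical.

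Oxidative phosphorylation couples the oxidation of nutrients to the synthesis of ATP. Complex I takes electrons from NADH and complex II from succinate, ubiquinone carries them to complex III, and cytochrome c carries them on to complex IV, which reduces oxygen to water. Complexes I, III and IV pump protons across the membrane, and the ATP synthase, complex V, uses the returning protons to make ATP. Resting lymphocytes use this pathway for most of their ATP, macrophages differ in their use of it with their state of activation, and erythroid cells lose their mitochondria as they mature.

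Promoter sequences are shown for 3 genes that recur below: Uqcr11, which had the largest difference among subunits made in most tissues; Cox6b2, which had the largest difference of all; and Cox6b1, the widely expressed counterpart of Cox6b2. Each is the 250 bases before the gene's start in RefSeq (build GRCm38.p6), 5′ to 3′ on the gene's own strand, with matches to the ETS motif CCGGAAG, on either strand, in capitals.
Uqcr11, chr10:80406822-80407071, minus strand: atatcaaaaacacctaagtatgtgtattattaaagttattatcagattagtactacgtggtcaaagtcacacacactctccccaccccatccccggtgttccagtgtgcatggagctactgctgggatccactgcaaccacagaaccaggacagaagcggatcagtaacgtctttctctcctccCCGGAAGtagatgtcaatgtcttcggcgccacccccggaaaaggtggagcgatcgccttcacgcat
Cox6b1, chr7:30626115-30626364, minus strand: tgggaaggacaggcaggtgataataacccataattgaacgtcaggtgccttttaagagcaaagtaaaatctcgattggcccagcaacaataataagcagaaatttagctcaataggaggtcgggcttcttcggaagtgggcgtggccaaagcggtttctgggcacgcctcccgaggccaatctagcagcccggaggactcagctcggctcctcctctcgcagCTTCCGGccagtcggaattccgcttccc
Cox6b2, chr7:4753095-4753344, minus strand: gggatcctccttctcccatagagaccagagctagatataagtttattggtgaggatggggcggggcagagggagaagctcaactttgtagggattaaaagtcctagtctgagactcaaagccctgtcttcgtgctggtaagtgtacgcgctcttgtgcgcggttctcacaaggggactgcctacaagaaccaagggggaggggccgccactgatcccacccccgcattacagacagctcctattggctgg

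The ETS match begins 66 bases before the start in Uqcr11 and 28 bases before it in Cox6b1, and these letters are not in the Cox6b2 window. RefSeq promoters were matched for 65 of the 77 genes, in 70 windows. The ETS motif, which the nuclear respiratory factor GABPA recognises, was in 12 of the 70 (17.1%) against 6.91% of all 32851 windows of the same length. The palindromic motif of NRF1, another respiratory factor, was in 3 (Atp5g2, Atp5k and Cox6a1; 4.29% against 0.782%) and the YY1 motif AAGATGGCG in 1 (Atp5j; 1.43% against 0.606%), again counting both strands. The ETS motif ends in the letters with which the YY1 motif begins, and Atp5j holds both. The median window held 14 CG pairs against 6 over all windows, and the windows printed hold 11 (Uqcr11), 14 (Cox6b1) and 8 (Cox6b2). A match describes the letters and no measurement here shows binding.

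Values below are log2 levels, so a difference of 1 is a 2-fold change, and every difference is lymphoma minus wild-type. Genes were tested with limma over all 18193 genes, and a gene is said to be called where its Benjamini-Hochberg adjusted p was under 0.05. Levels of different probe sets were set against each other only to pick the brightest, to call one dimmer and to place genes against the median over genes. In the deposited values, already processed by RMA, the array medians over all probe sets lay between 6.88 and 6.97. Medians taken after that step cannot show whether the arrays differed in overall level before it. The array medians over the 18193 genes, each read from its brightest probe set, lay between 7.78 and 7.93. All 7 B-cell markers with a probe set lay above this median over genes on every array. None of the 10 striated muscle and brown fat markers and none of the 6 pancreas markers did so on every array. The mean deviation of the 6 pancreas markers from the wild-type mean was still 0.209 to 0.557 in the lymphomas, against -0.157 to 0.086 in the wild-type spleens. All 6 differences were positive (median 0.105, largest 1.383), and limma called 0 of them. Over all genes limma called 130 (74 higher and 56 lower). Malt1 differed by -0.59 (limma adjusted p 0.133) with all 3 of its probe sets lower, and whether they read the transgene was not tested.

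No subunit gene changed between lymphoma and wild-type spleen at the adjusted threshold. Limma called 0 of 77, where 0.715% of all genes were called, and the smallest limma adjusted p was 0.11, for Cox6a2. At an unadjusted p under 0.05 limma had 11 higher and 1 lower, against 6.69% and 8.0% of all genes. A test with unequal variances called 0 of all genes, so its count of 0 among the members carries no information about them. Unadjusted, that test had 10 members higher and 2 lower. Its unadjusted shares over all genes were not counted, so these 2 counts have no background to be read against. The differences were small: they ran from -0.35 (Cox6a2) to 0.76 (Cox6b2), and none reached 2-fold. The 95% interval of the difference lay inside a 2-fold change in either direction for 76 of the 77, all but Cox6b2, and inside a log2 value of 0.5 in either direction for 63. Differences smaller than these intervals were not resolved with 9 arrays.

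**Figure D1:**
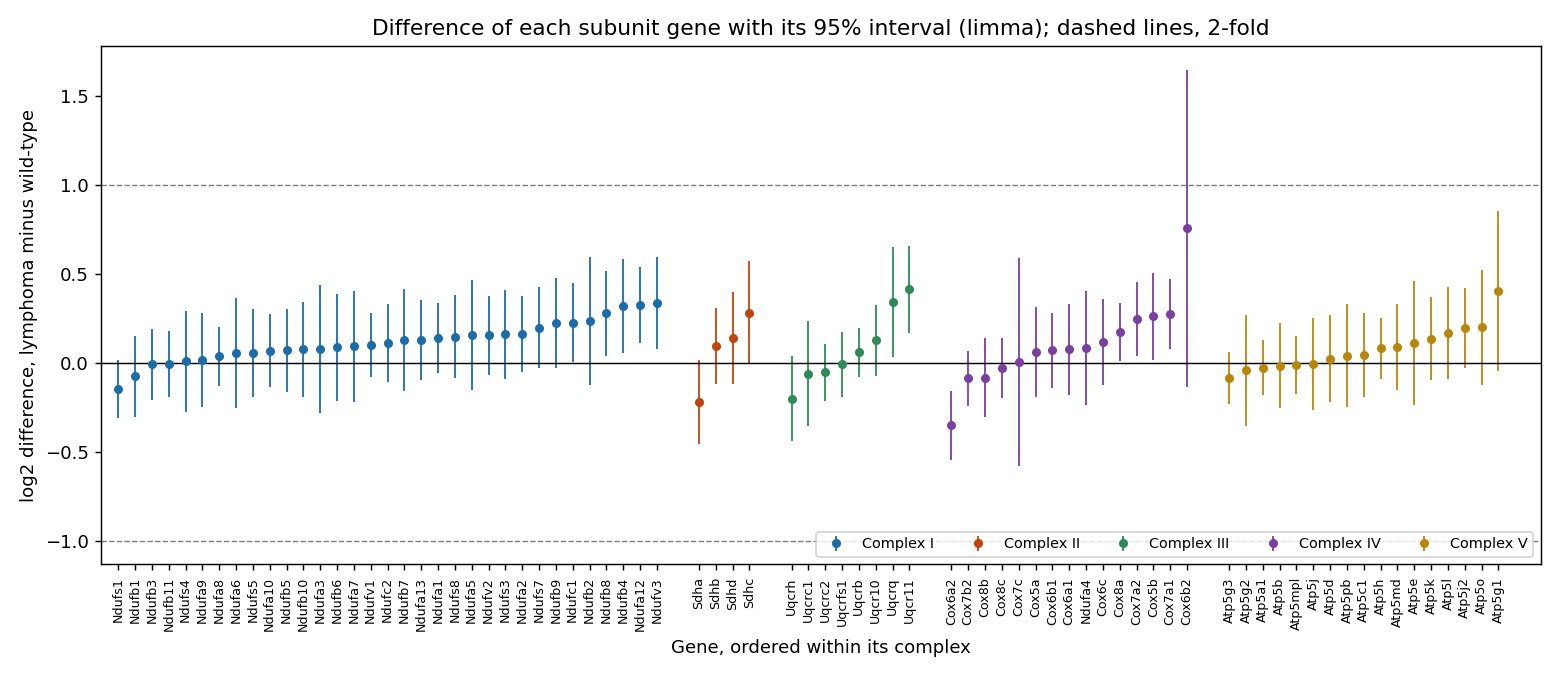
Log2 difference, lymphoma minus wild-type, of each of the 77 subunit genes (points) with its 95% interval from limma (bars), coloured by complex; dashed lines mark a 2-fold change. All intervals except that of Cox6b2 stay between the dashed lines, and Cox6a2 has the lowest difference, -0.35.

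Most of the small differences were positive. Of the 77 genes 58 (75.3%) had a positive difference against 50.3% of all genes, and the median difference was 0.089 against 0.001. Of the genes at or above the median level 43.2% were positive, and of the 70 members in that range 78.6%. Among these 70, 9 were higher and 0 lower at an unadjusted limma p under 0.05, against 8.29% and 12.1% of all genes in that range. The unequal-variance test called 0 of them, as it did of all genes. With any single array left out, 52 to 62 members were positive. There were 54 without lymphomas 1 and 2 and 53 without lymphomas 3 and 5. Without lymphomas 2 and 5, a pair chosen after seeing the data, 42 members were positive with a median of 0.003. These 2 arrays stood highest for the members, so a weaker tilt without them was built in. With the level of the 18S ribosomal RNA controls as a covariate, 34 were positive with a median of -0.013. The 18S level was 13.37 in lymphoma 2 and 12.86 in lymphoma 5. Lymphomas 1, 3 and 4 had 12.68, 12.18 and 12.63, and the wild-type spleens 12.15 to 12.37. Its part in the result was not tested.

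Array by array, the mean over the 77 genes of the value minus the wild-type mean was 0.223 in lymphoma 2 and 0.198 in lymphoma 5. Lymphomas 1, 3 and 4 had 0.067, 0.016 and 0.001, and the wild-type spleens ran from -0.031 to 0.046. Lymphomas 3 and 4 therefore did not differ in this mean from wild-type arrays by more than those arrays spread. The same mean over all genes ran from -0.02 to 0.048. Lymphoma 5 was above every wild-type spleen for 57 of the 77 genes, where 31.9% of all genes were, and lymphoma 2 for 50, where 29.3% of all genes were. For lymphomas 1, 3 and 4 the counts were 31, 18 and 21, where 30.6%, 25.1% and 30.3% of all genes were, so lymphoma 1 lay above the share of all genes and lymphomas 3 and 4 below it. Lymphoma 2 held the highest value of the 9 arrays for 24 members (31.2%, against 14.6% of all genes) and lymphoma 5 for 23 (29.9%, against 12.5%). Lymphoma 1 held the lowest value for 19 (24.7%, against 21.4%) and the highest for 13 (16.9%, against 18.4%), shares near those of all genes. The lymphomas also spread more than the wild-type spleens: the median SD was 0.187 over 5 lymphomas and 0.085 over 4 wild-type spleens, close to the 0.196 and 0.109 of all genes.

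**Figure D2:**
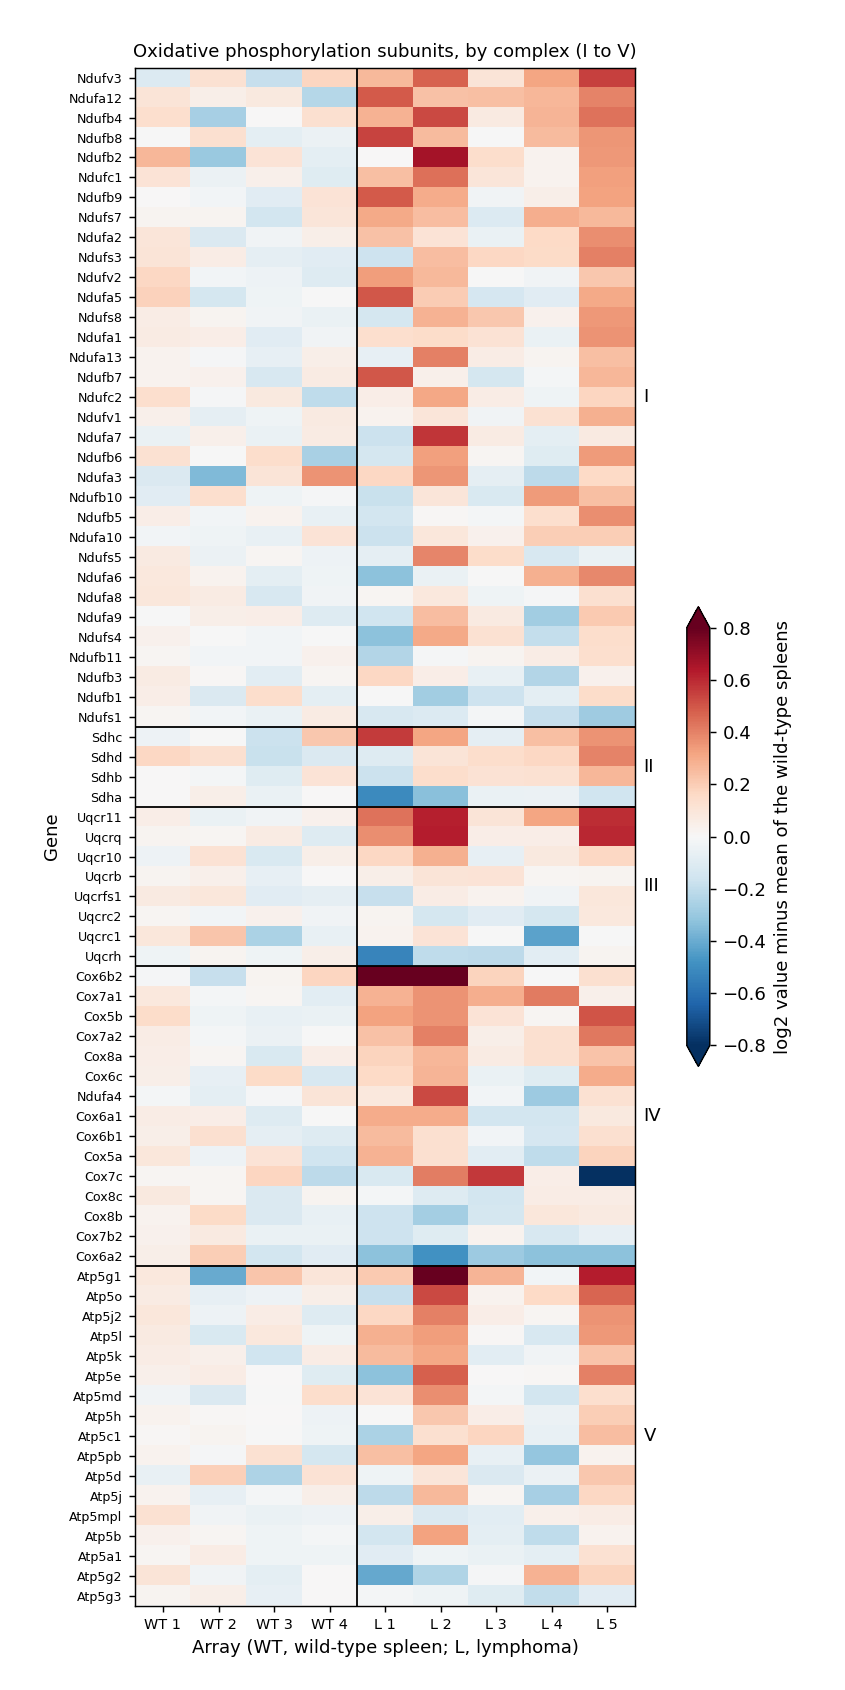
Heat map of the log2 value of each subunit gene on each array minus its mean over the wild-type spleens (red higher, blue lower; the scale ends at 0.8 in either direction), with genes ordered by difference within complexes I to V. Lymphomas 2 and 5 are red for most genes, lymphomas 3 and 4 are pale, and Cox6b2 is dark red only in lymphomas 1 and 2.

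No cell type or proliferation list had lymphomas 2 and 5 as its 2 highest or its 2 lowest lymphomas. The erythroid list (12 genes) averaged 4.341 and 4.076 above the wild-type mean in lymphomas 1 and 2, 0.42 in lymphoma 5, and 1.023 and -1.135 in lymphomas 3 and 4. The proliferation list (9 genes) stood at 1.798 and 1.634 in lymphomas 1 and 2 and at -0.079, -1.366 and 0.03 in lymphomas 3, 4 and 5. The macrophage list (9 genes, 7 of them called higher) was raised in every lymphoma, by 1.085 to 1.648. The neutrophil list (8 genes) ran from 0.015 in lymphoma 4 to 6.092 in lymphoma 1, and stood at 2.687 in both lymphomas 2 and 5. The B-cell list (7 genes) lay between -1.307 in lymphoma 1 and -0.122 in lymphoma 2, the T-cell list (7 genes) between -1.463 in lymphoma 1 and 0.064 in lymphoma 3, and the plasma cell list (7 genes) between -0.256 in lymphoma 4 and 0.985 in lymphoma 5. The part of these cells in the subunit levels was not tested, and in whole tissue fewer cells of a type and less RNA per cell cannot be told apart.

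**Figure D3:**
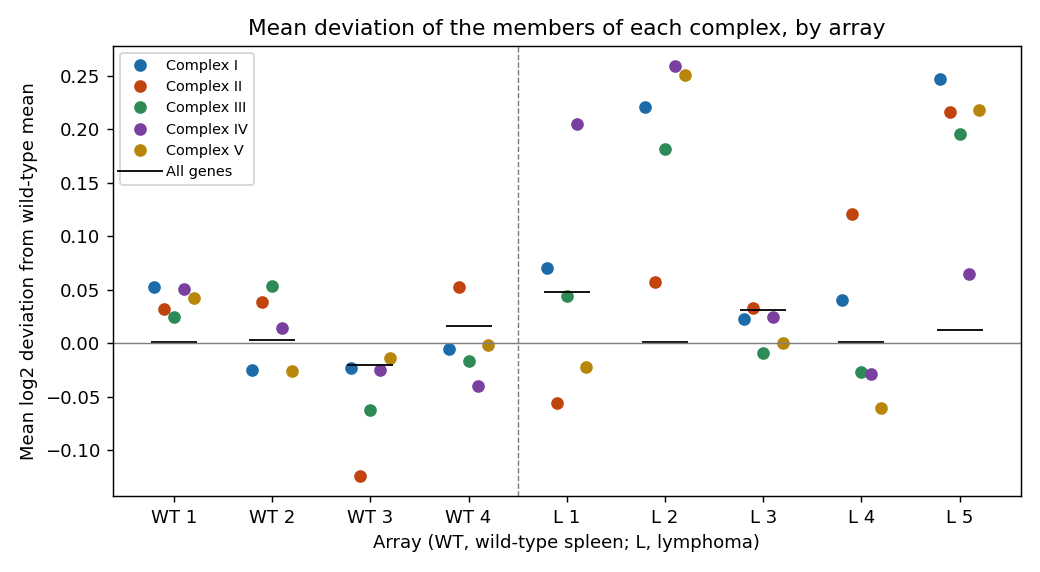
Mean over the members of each complex of the log2 value minus its wild-type mean, for each array (points, one colour per complex), with the mean over all genes as a black bar. Complexes I, III and V are highest in lymphomas 2 and 5, and complex IV is highest in lymphomas 1 and 2.

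Complex I, the NADH dehydrogenase, has a matrix arm that takes up electrons and a membrane arm that pumps protons. Of its 33 genes 29 had a positive difference, with a median of 0.112. Of all genes 50.3% were positive, and 43.2% of those at or above the median level. Limma called 0, with 5 higher at an unadjusted p under 0.05, where 6.69% of all genes were. With the 18S covariate 18 were positive (median 0.013), and without lymphomas 2 and 5, 20 were (median 0.025). The 6 catalytic core genes (Ndufs1, Ndufs3, Ndufs7, Ndufs8, Ndufv1 and Ndufv2) differed by -0.14 to 0.20, with a median of 0.151, and the 27 accessory genes by -0.08 to 0.34, with a median of 0.093.

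Ndufa12 encodes an accessory subunit of the matrix arm. Its values were 11.53, 11.47, 11.50 and 11.19 in the wild-type spleens and 11.91, 11.66, 11.66, 11.69 and 11.82 in lymphomas 1 to 5. All lymphomas lay above all wild-type spleens, and the difference was 0.33 (SE 0.0944, limma adjusted p 0.165). Its 4 probe sets did not agree: a dimmer one differed by -0.27.

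Ndufv3 encodes an accessory subunit next to the NADH-binding site, with 11.27, 11.51, 11.20 and 11.56 in the wild-type spleens and 11.64, 11.86, 11.49, 11.70 and 11.93 in the lymphomas. Lymphoma 3 lay within the wild-type range and the others above it. The difference was 0.34 (SE 0.115, limma adjusted p 0.222). Ndufs1, the largest core subunit, which carries iron-sulfur clusters, had the lowest difference of the complex, -0.14 (SE 0.0729, limma adjusted p 0.403). It stood at 10.63, 10.59, 10.56 and 10.68 in the wild-type spleens and at 10.49, 10.50, 10.60, 10.43 and 10.33 in the lymphomas, with lymphoma 3 inside the wild-type range. The accessory gene Ndufb1 followed, at -0.08 (limma adjusted p 0.775). Ndufb4 was read by a probe set whose group means, 5.26 and 5.57, lie below the median gene level of 7.83, and differed by 0.32 (limma adjusted p 0.256).

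Complex II, succinate dehydrogenase, is also an enzyme of the citric acid cycle, and all of its subunits are encoded in the nucleus. Of its 4 genes 3 had a positive difference and 1 a negative one, and limma called 0. Sdha, the flavin-bearing subunit that oxidises succinate, stood at 12.44, 12.49, 12.39 and 12.45 in the wild-type spleens and at 11.93, 12.11, 12.39, 12.40 and 12.29 in the lymphomas. Lymphomas 1, 2 and 5 lay below the wild-type range and lymphomas 3 and 4 within it. The difference was -0.22 (SE 0.104, limma adjusted p 0.371), and its dimmer probe sets differed by -0.08, 0.02 and -0.39.

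Sdhc, a membrane anchor, stood at 9.80, 9.84, 9.68 and 10.06 in the wild-type spleens and at 10.40, 10.16, 9.77, 10.09 and 10.21 in the lymphomas, with only lymphoma 3 inside the wild-type range. The difference was 0.28 (SE 0.129, limma adjusted p 0.351), but its second probe set differed by 0.02. The iron-sulfur subunit gene Sdhb differed by 0.10 (limma adjusted p 0.686) and the other anchor gene Sdhd by 0.14 (limma adjusted p 0.619). The highest lymphoma value of both was in lymphoma 5, at 11.50 and 11.27.

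Complex III passes electrons from ubiquinol to cytochrome c. Its 8 genes were divided, 4 positive and 4 negative, with a median of 0.026 and 0 called by limma. The median turned to -0.029 with the 18S covariate and to -0.039 without probe sets whose names end in _x, _s or _a, and was 0.0 without wild-type spleen 3 and 0.051 without lymphoma 4, so it has no settled sign. Uqcr11, a small accessory subunit, had the largest difference of the complex. Its values were 11.12, 11.02, 11.04 and 11.11 in the wild-type spleens and 11.51, 11.70, 11.18, 11.39 and 11.66 in lymphomas 1 to 5. The groups did not overlap, although lymphoma 3 lay close to the wild-type spleens. The difference was 0.41 (SE 0.11, a 1.33-fold higher level, limma adjusted p 0.131). Without lymphoma 3 it was 0.49 with a limma adjusted p of 0.0474, the only call of a member with any array left out. Lymphoma 3 had the lowest lymphoma value of Uqcr11, so a larger difference without it was built in. Only 1 probe set reads this gene.

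Uqcrq, another small accessory subunit, stood at 10.27, 10.27, 10.31 and 10.15 in the wild-type spleens and at 10.62, 10.88, 10.30, 10.30 and 10.85 in the lymphomas. Lymphomas 1, 2 and 5 were high, as for Uqcr11, but lymphomas 3 and 4 lay within the wild-type range. The difference was 0.34 (SE 0.137, limma adjusted p 0.293), and its other 3 probe sets differed by -0.11, -0.08 and 0.01. The Rieske iron-sulfur protein gene Uqcrfs1 differed by -0.01 and the core protein genes Uqcrc1 and Uqcrc2 by -0.06 and -0.05. Uqcrh, the hinge protein, which assists the docking of cytochrome c, was lowest at -0.20 (SE 0.106, limma adjusted p 0.425), with 12.69 to 12.77 in the wild-type spleens and 12.20 in lymphoma 1. The other lymphomas had 12.52, 12.52, 12.64 and 12.74, so lymphoma 5 alone lay within the wild-type range. The second probe set of Uqcrh differed by -0.02.

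Complex IV, cytochrome c oxidase, has several nuclear subunits with a widely expressed form and a form of restricted tissues. The 9 genes made in most tissues all had positive differences, from 0.004 (Cox7c) to 0.26 (Cox5b), with a median of 0.083, but only 4 of them did without lymphomas 1 and 2, with the erythroid covariate or with the 18S covariate. Without lymphomas 1 and 2 the 5 that turned negative were Cox5a, Cox6a1, Cox6b1, Cox7c and Ndufa4, and the median was -0.007. Limma called 0 of the 9. Cox8a was the member of this group whose arrays did not overlap, with 10.80, 10.76, 10.62 and 10.80 in the wild-type spleens and 10.92, 11.01, 10.81, 10.87 and 10.97 in the lymphomas. The difference was 0.17 (SE 0.0728, limma adjusted p 0.314). Its dimmer probe sets differed by 0.17 and -0.12, and in both the groups overlapped. Cox7a2 stood at 12.59 to 12.70 in the wild-type spleens and at 12.87, 13.04, 12.68, 12.76 and 13.06 in the lymphomas, a difference of 0.25 (SE 0.0926, limma adjusted p 0.265). Only lymphoma 3 lay within the wild-type range. Cox6a1 and Cox6b1 differed by 0.08 and 0.07 (limma adjusted p 0.806 and 0.775).

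Cox7c had the widest spread of the widely expressed genes: it stood at 8.72 to 9.10 in the wild-type spleens, at 9.34 and 9.49 in lymphomas 2 and 3, and at 8.04 in lymphoma 5. Its second probe set gave the same order at the ends, with 7.55 and 7.56 in lymphomas 2 and 3 and 5.93 in lymphoma 5. The group means were alike (8.93 ± 0.16, SD, n = 4, and 8.93 ± 0.57, SD, n = 5).

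The 6 restricted isoforms behaved differently from each other. Cox6b2, the testis form of a subunit that faces the space between the membranes, stood at 5.61, 5.44, 5.65 and 5.79 in the wild-type spleens. It was 7.40 and 7.32 in lymphomas 1 and 2 and 5.80, 5.62 and 5.75 in lymphomas 3, 4 and 5. Only lymphomas 1 and 2, the arrays with the highest erythroid and proliferation lists, stood clearly above the wild-type range. The difference of 0.76 (SE 0.398, limma adjusted p 0.424) was thus carried by 2 of 5 lymphomas, and was 0.10 with those arrays left out.

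Cox6a2, the heart and skeletal muscle form of a subunit, stood at 8.04, 8.19, 7.85 and 7.90 in the wild-type spleens and at 7.67, 7.51, 7.70, 7.67 and 7.67 in the lymphomas. All lymphomas lay below all wild-type spleens, and the difference was -0.35 (SE 0.087, limma adjusted p 0.11). Lymphomas 1, 4 and 5 held the identical value 7.6711, and the SD over the lymphomas was 0.0756. Its second probe set differed by -0.49 (limma adjusted p 0.1 over all probe sets). Cox7a1, also a muscle form, stood at 4.88 to 5.05 in the wild-type spleens and at 5.24, 5.32, 5.25, 5.38 and 5.00 in the lymphomas, with lymphoma 5 inside the wild-type range and the others above it. The difference was 0.28 (SE 0.0881, limma adjusted p 0.201). The mean deviation of the 10 striated muscle and brown fat markers from the wild-type mean stayed between -0.084 and 0.08 over the 9 arrays. The third muscle form, Cox8b, and the testis forms Cox8c and Cox7b2 differed by -0.08, -0.03 and -0.09. Of the 6 genes, 5 had mean levels below the median gene level of 7.83, and Cox6a2, at 7.80, lay just below it. RMA values of dim genes can compress differences, which was not measured here.

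**Figure D4:**
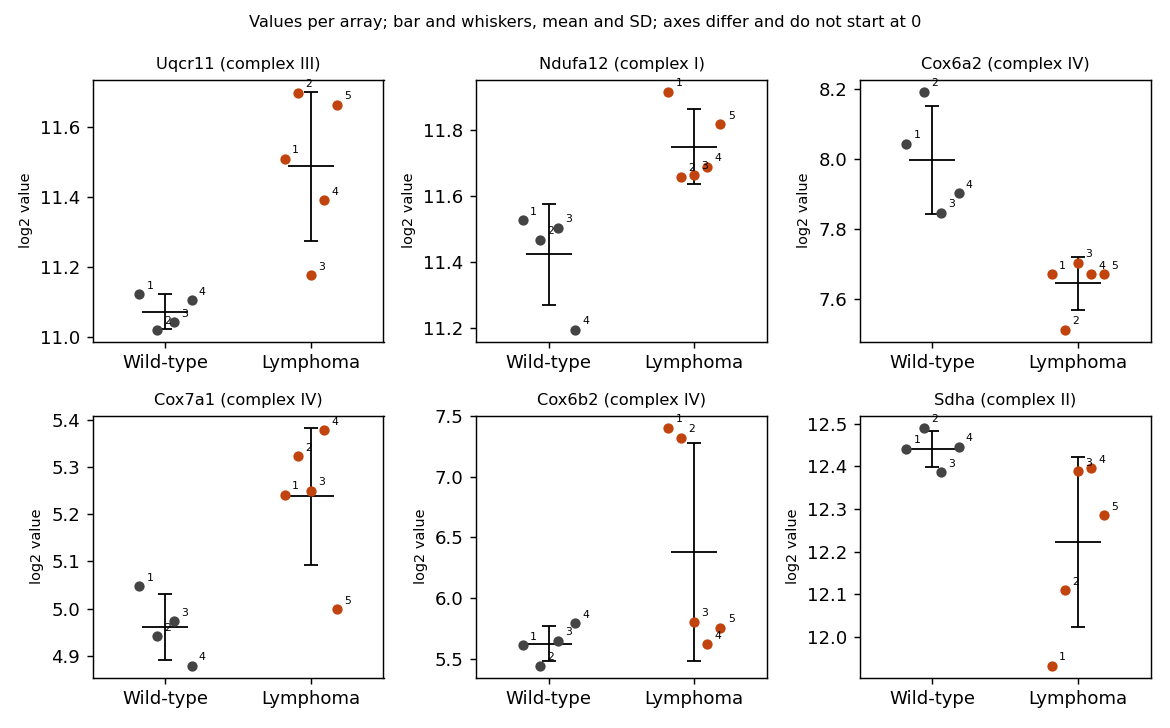
Log2 values of 6 subunit genes on each array (points, numbered by replicate) in 4 wild-type spleens and 5 lymphomas, with the mean (bar) and SD (whiskers); the vertical axes differ and do not start at 0. Uqcr11 and Ndufa12 lie higher and Cox6a2 lower in all lymphomas, whereas Cox6b2 is high only in lymphomas 1 and 2.

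In all, 3 members (Ndufa12, Uqcr11 and Cox8a) were higher in every lymphoma than in every wild-type spleen, where 3.29% of all genes were, and 1 (Cox6a2) was lower, where 4.04% were. Among genes at or above the median level 4.39% were higher and 6.34% lower in this way, and 3 and 0 of the 70 members there. The count of 3 is near the share of all genes. For Ndufa12 and Cox8a the separation was that of the brightest probe set, and each had a dimmer one of opposite sign.

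Complex V, the ATP synthase, has a catalytic F1 head, a stalk that holds it still and a rotating ring of c subunits in the membrane. Of its 17 genes 11 had a positive difference, with a median of 0.046, where 50.3% of all genes were positive. Limma called 0, with 0 at an unadjusted p under 0.05, where 6.69% of all genes were higher and 8.0% lower. The unequal-variance test called 0 of them, as it did of all genes. The median turned to -0.055 with the 18S covariate, -0.045 without lymphomas 2 and 5 and -0.013 without probe sets whose names end in _x, _s or _a. It was 0.021 without lymphoma 2 and 0.115 without lymphoma 4. The 5 genes of the F1 head (Atp5a1, Atp5b, Atp5c1, Atp5d and Atp5e) differed by -0.03 to 0.11, and the 4 of the peripheral stalk by -0.01 (Atp5j) to 0.20 (Atp5o, SE 0.143, limma adjusted p 0.565). Atp5o, the subunit that joins the stalk to the head, stood at 10.95 to 11.08 in the wild-type spleens and at 10.84, 11.55, 11.05, 11.18 and 11.48 in the lymphomas. Lymphomas 2 and 5 were the highest and lymphoma 1 the lowest of all arrays.

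The 3 c-ring genes encode the same mature protein behind different import sequences. Atp5g1 had the largest difference of the complex, with 9.85, 9.35, 9.98 and 9.85 in the wild-type spleens and 9.97, 10.68, 10.03, 9.74 and 10.38 in the lymphomas. The difference was 0.40 (SE 0.2, limma adjusted p 0.394), and the groups overlapped. Atp5g2 stood at 10.89 to 11.07 in the wild-type spleens and at 10.56, 10.73, 10.96, 11.25 and 11.15 in the lymphomas, a difference of -0.04 (limma adjusted p 0.919). Its low lymphomas were 1 and 2, and its high ones 4 and 5. Atp5g3 had the lowest difference of the complex, -0.08 (SE 0.066, limma adjusted p 0.596), with 13.79 to 13.90 against 13.66 to 13.84.

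Of the 47 members with more than 1 probe set, 29 had all probe sets on the same side and 18 had at least 1 of opposite sign. Limma over all probe sets called 0 of the 158 member probe sets. Unadjusted, 11 had p under 0.05 with a positive difference and 4 with a negative one. Over all genes these shares were 6.69% and 8.0%, and the shares over all probe sets were not counted.

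Other genes of the pathway were read from lists. Limma called 0 genes of every list below. The unequal-variance test, which called 0 of all genes, did so too. At an unadjusted limma p under 0.05 there were 6 higher among the 73 mitochondrial ribosome genes, 2 among the 42 assembly factors and 1 among the 8 further carriers and subunits, where 6.69% of all genes were. There were 5 lower among genes of mitochondrial DNA upkeep and biogenesis, 3 among fatty acid oxidation genes and 1 among citric acid cycle genes, where 8.0% of all genes were, and no others in these lists. Of 8 further carriers and subunits, 7 had positive differences (median 0.11). They included Atpif1, the inhibitor of ATP synthase, at 0.84 (limma adjusted p 0.343), and the electron carrier gene Cycs, cytochrome c, at 0.32 (limma adjusted p 0.306). Atpif1 stood at 9.96 to 10.78 in the wild-type spleens and at 11.96, 12.02, 10.89, 10.20 and 10.72 in the lymphomas, so that, as for Cox6b2, the high arrays were lymphomas 1 and 2. Of 42 assembly factors 22 were positive (median 0.008), with Uqcc2, which acts on complex III, at 0.36 and Ndufaf2, which acts on complex I, at 0.35. Of 73 mitochondrial ribosome genes 48 were positive (median 0.086), with Mrpl57 at 0.31 and Mrps6 at 0.30. On this list too lymphomas 2 and 5 stood highest, at 0.196 and 0.188 above the wild-type mean, while the others lay between -0.038 and 0.017. Without these arrays 31 of the 73 were positive (median -0.028), and with the 18S covariate 19 were (median -0.073).

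Of 16 citric acid cycle genes 5 were positive (median -0.028). Fh1, fumarase, which acts on the product of complex II, had the lowest limma adjusted p of these lists, 0.0717, at a difference of -0.43 (SE 0.0905). It stood at 11.41, 11.35, 11.33 and 11.27 in the wild-type spleens and at 10.70, 10.99, 11.08, 10.78 and 10.98 in the lymphomas, and the groups did not overlap. Limma called it with array weights (-0.42, adjusted p 0.0224) and with the Gapdh ratio as a covariate (-0.46, adjusted p 0.0281). Dlst, of the oxoglutarate dehydrogenase complex, differed by -0.25 (limma adjusted p 0.369).

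The list of genes for mitochondrial DNA upkeep and biogenesis tilted the other way from the subunits. Of 21 genes 18 had a negative difference (median -0.235), 5 of them at an unadjusted p under 0.05, where 8.0% of all genes were, and 3 with all lymphomas below all wild-type spleens, where 4.04% of all genes were. Among genes at or above the median level, to which 20 of the 21 belong, these shares were 12.1% and 6.34%. Ppargc1a, a coactivator that drives mitochondrial biogenesis, differed by -0.65 (SE 0.391, limma adjusted p 0.489). It stood at 6.07 to 6.78 in the wild-type spleens, at 5.19 and 4.63 in lymphomas 1 and 2 and at 6.40 to 6.42 in the others. Polg2, the accessory subunit of the mitochondrial DNA polymerase, differed by -0.35 (limma adjusted p 0.454), and was also low in lymphomas 1 and 2 only, at 8.74 and 8.75. The list as a whole did not rest on these 2 arrays: without them 18 of the 21 genes were still negative (median -0.149). Its mean deviation from the wild-type mean was -0.382 to -0.064 in the lymphomas, with lymphoma 4 the nearest to wild-type. In the wild-type spleens it was -0.062 to 0.031.

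The genes that feed electrons to ubiquinone or make it were evenly split, 9 of 19 positive (median -0.03), with Sqor, which oxidises sulfide, at 0.50 and the proline dehydrogenase gene Prodh at 0.30. Fatty acid oxidation genes were split as well, 7 of 13 positive (median 0.003), with the carnitine carrier gene Slc25a20 at -0.42 (limma adjusted p 0.214) and Eci1 at 0.39 (limma adjusted p 0.453).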

How the data were processed

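Per the submitters' processing notes, the authors made the deposited log2 levels per probe set with RMA. The RMA version and settings were not given in the sources used here. Of 45101 probe sets, 64 Affymetrix controls were left out. Genes were named through the platform annotation, and only probe sets with 1 symbol (34945) were used. Matching by RefSeq identifier (GRCm38.p6) changed 0 symbols. Each gene was read from its probe set with the highest mean.

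The comparison used limma 3.58.1 under R 4.3.3 (a two-sided moderated test without covariates or filtering), with adjusted p-values over all 18193 genes. The 95% intervals are limma's moderated ones. The fit was tested on simulated data. The members, lists and motifs were chosen with earlier results of these data known, and no list test was run. Named genes were the 2 largest positive and 2 largest negative differences in each complex (all of complex II), the isoform families, and in each list up to 3 called genes or else the 2 with the largest difference; any other member was named with its values in view. Alternatives covered normalization, filter, variance prior, array weights, unequal variances, replicate block, probe set choice, covariates, the member list and arrays left out. Figures used matplotlib 3.10.9 in Python 3.11.15.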

Additional observations from a re-analysis of the deposited data

Results flagged for a closer look

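Among 94 groups of 4 or 5 arrays examined over the named genes and the means by complex, 5 had a highest or lowest array far from the rest, about what chance gives at 1 in 20. Uqcrc1 was 10.708 in lymphoma 4, with the next lowest lymphoma at 11.132. Cox6a2 was 7.514 in lymphoma 2, and the next lowest lymphoma was at 7.671. Mrpl57 was 10.161 in wild-type spleen 3, below the next wild-type spleen at 10.40. Prodh was 8.081 in wild-type spleen 2, above the next at 7.727. The mean of complex II lay at -0.124 in wild-type spleen 3, against 0.032 or more in the other wild-type spleens.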

How the results depend on the processing

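Limma called 0 subunit genes under every alternative run except without lymphoma 3, so the count ranged from 0 to 1 with single arrays left out, and the median difference then ranged from 0.062 to 0.133. Over the other alternatives the median ran from -0.013 (18S covariate) to 0.118 (quantile normalization), and was 0.003 without lymphomas 2 and 5, a choice made after seeing the data. Limma's 130 calls over all genes became 532 with array weights, 459 with the Gapdh ratio as a covariate, 14 with the 18S covariate, 601 without lymphomas 1 and 2, 48 without lymphomas 3 and 5, 10 to 328 with single arrays left out (10 without wild-type spleen 2, 328 without lymphoma 2), and 0 with unequal variances (1217 genes higher and 1456 lower had a limma unadjusted p under 0.05). The pathway lists had 1 call with array weights, 2 with the Gapdh ratio and 1 without lymphomas 1 and 2. The labels number the samples in each group; with the number as a replicate block limma called 7 genes and the subunit median was 0.071, as without lymphoma 5, which has no wild-type sample of its number and so adds nothing to that fit. Correlations of same-numbered samples ran from -0.20 to 0.14. The same-numbered wild-type spleen correlated best for lymphomas 1 and 3 but not for lymphomas 2 and 4. The numbers were not taken as pairs, and whether they mark a shared batch was not tested. Of 1026 values of 40 named genes under alternatives, 24 changed sign. Atp5g2 became 0.034 (array weights), 0.036 (18S), 0.132 (erythroid covariate), 0.148 (without lymphomas 1 and 2), 0.05 (without lymphoma 1) and 0.009 (without lymphoma 2). Cox6a1 became -0.024, -0.121, -0.064 and -0.072 under the first 4 of these. Cox6b1 became -0.007 (18S), -0.017 (erythroid) and -0.007 (without lymphomas 1 and 2), and Cox8b 0.006 and 0.007 under the last 2. With 18S, Atp5o became -0.059, Ppargc1a 0.124 and Eci1 -0.03. Without probe sets whose names end in _x, _s or _a, Ndufa12 became -0.272, Uqcrq -0.113 and Atp5g1 -0.151, each read from a dimmer probe set. Cox8c became 0.034 with the mean of its probe sets, and Uqcrc1 0.015 without wild-type spleen 2 and 0.033 without lymphoma 4. With single arrays left out Uqcrc1 was as low as -0.145 and Atp5g2 as low as -0.12. The cause of these changes was not tested. Dim genes are limited by signal near background, where RMA values can compress differences.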
